A study of Carassius gibelio with 4 samples.

Results

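In 8 groups of related gene IDs from gibel carp liver, one ID was more abundant in the F strain and another was more abundant in the A strain on the same diet. Of 56011 gene IDs in the data, 17 belonged to this set. IDs are written as in c34800_g1, and those that share the first part, as c34800, are treated as 1 component of the transcript assembly, which is how such names are usually built. An ID could enter if it was above 0 in both rapeseed libraries with a mean of 10 FPKM or more (fragments per kilobase of transcript per fixed number of mapped fragments, on the deposited scale). Folds are differences of log2(FPKM + 1), the F strain over the A strain unless said otherwise, and understate the differences of low IDs. Members were thus chosen by their rapeseed values in these same libraries: a component was kept if at least 1 such ID had a log2 fold of 1 or more and at least 1 had a log2 fold of -1 or less. The 8 IDs higher in the F strain on rapeseed are called F-preferred and the 9 IDs lower in the F strain on rapeseed A-preferred.

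The study compared livers of the A strain and the F strain of gibel carp (Carassius gibelio), fed either a fishmeal-based or a rapeseed meal-based feed, with liver taken 8 hours after the last meal. Each of the 4 combinations of strain and diet is 1 library, so no difference here has a replicate check and no p-value is given. The labels do not give the number of fish in a library, their age or how the strains were derived. The files give no gene names beside the IDs, and 0 IDs had a match in the RefSeq gene table of the species, so no function is reported and the liver label could not be checked against marker genes.

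Gibel carp is a polyploid fish that reproduces largely by gynogenesis, in which sperm starts development of the egg without, as a rule, adding its genome. Its clonal lines are farmed as strains, and many of its genes exist as several similar copies inherited from genome duplication and hybrid ancestry. In an assembly made from reads alone, similar copies, alleles, splice forms and separate pieces of one transcript can all come out as IDs of 1 component. The files do not say which of these a given pair of IDs is, nor how reads that match more than 1 ID were divided, so levels of near-identical IDs are uncertain. In bulk liver RNA, fewer cells of a type and less RNA per cell cannot be told apart.

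The F strain fishmeal library was shallower than the others. It listed 19015 IDs above 0, against 44906 to 47839 in the others. Among 672 low IDs with equal values in the other libraries (within 0.06 on the log2 scale), 32 were above 0 in it, and the largest cluster of those, 12 IDs, stood at 53.8 times the value in the others, while the median of the 32 was 26.8 times. If the cluster holds single reads, the library had about 1 read for every 53.8 in the others, an estimate that rests on those few IDs. Among IDs that were steady in the other libraries (highest value at most 1.5 times the lowest), it stood at least 2-fold lower in 19.3% at a level of 10 to 30 FPKM, 20.2% at 30 to 100 and 18.5% at 100 or more, and at least 2-fold higher in 3.30%, 0.726% and 0%. Of the same IDs, 5.49%, 2.66% and 0.426% were listed at 0 in it. The deposited values also carry 1 factor per library, which before the pseudocount adds -0.32 to every strain fold on rapeseed and -0.49 on fishmeal, and 0.43 to every fold of rapeseed over fishmeal in the A strain and 0.60 in the F strain. With the factors in place, the median strain fold over the 6511 IDs that could enter was -0.01 on rapeseed and -0.43 on fishmeal. Dividing the factors out thus moves the rapeseed folds away from a median near 0. It serves below as another scale, not as a corrected one. The shares at least 2-fold lower or higher were counted on the deposited scale, so the factors are part of them. How far depth and the factors each set those shares was not tested.

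Opposite preference within a component was found in 8 of the 767 components that could show it. On rapeseed, 6511 IDs of 5579 components passed the level filter, of which 358 (5.5%) were higher in the F strain by 2-fold or more and 468 (7.19%) lower by 2-fold or more. A component needs 2 or more IDs past the filter to qualify, and 767 did. Of these, 66 had 2 or more IDs beyond 2-fold between the strains. In 23 of the 66 all such IDs were higher in the F strain, in 35 all were lower, and in 8 they lay on both sides. The 8 are 1.04% of the 767. How often IDs of different components would lie on opposite sides was not counted, so this share is not read as low or high for IDs of 1 component. The same rule in the pair of A strain libraries, with diet in place of strain, gave 2 of 779 components, or 0.257%. In that pair 441 IDs were past the limit upwards and 225 downwards on rapeseed, fewer in total than the IDs apart between the strains. The pairs that include the shallow F strain fishmeal library gave larger shares. They were 25 of 726 components (3.44%) by diet in the F strain and 32 of 679 (4.71%) by strain on fishmeal. More single IDs were also past the limit there. By diet in the F strain, 971 of 6890 IDs were higher on rapeseed and 1404 lower. By strain on fishmeal, 1310 of 6613 IDs were higher in the F strain and 979 lower. Each pair was filtered on its own levels. Over the 6511 IDs filtered on rapeseed levels, the fishmeal shares were 6.99% higher and 25.8% lower. All are counts in single libraries that share members of the pairs. The A strain rapeseed library is part of both the strain pair on rapeseed and the diet pair of the A strain. Dividing out the library factors left 5 of the 8 components (without c28653, c29975 and c36383), and asking for a mean of 30 FPKM or more left 1 (c34800). With the factors divided out, c28653 kept log2 folds of 2.48 and -2.80 and c29975 of 1.45 and -4.13. In each of these an ID fell under the mean of 10 FPKM, which was applied to the rescaled values. In c36383 the A-preferred ID had a log2 fold of -0.83.

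The limits were met with different margins on either side. On the F-preferred side the nearest members inside were c29080_g4, with a log2 fold of 1.16, and c29975_g2, with 1.19, and the nearest outside, among IDs whose component holds an A-preferred ID, was c32437_g3, with 0.82. On the A-preferred side the nearest member inside was c36383_g4, with -1.13. Just outside, in a component that holds an F-preferred ID, stood c36584_g2 with -0.99, at 3007 FPKM in the A strain and 1518 in the F strain on rapeseed, a level above that of any member. The next inside was c33007_g2 with -2.28, so c36383_g4 was the A-preferred ID that stood near the limit.

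**Figure D1:**
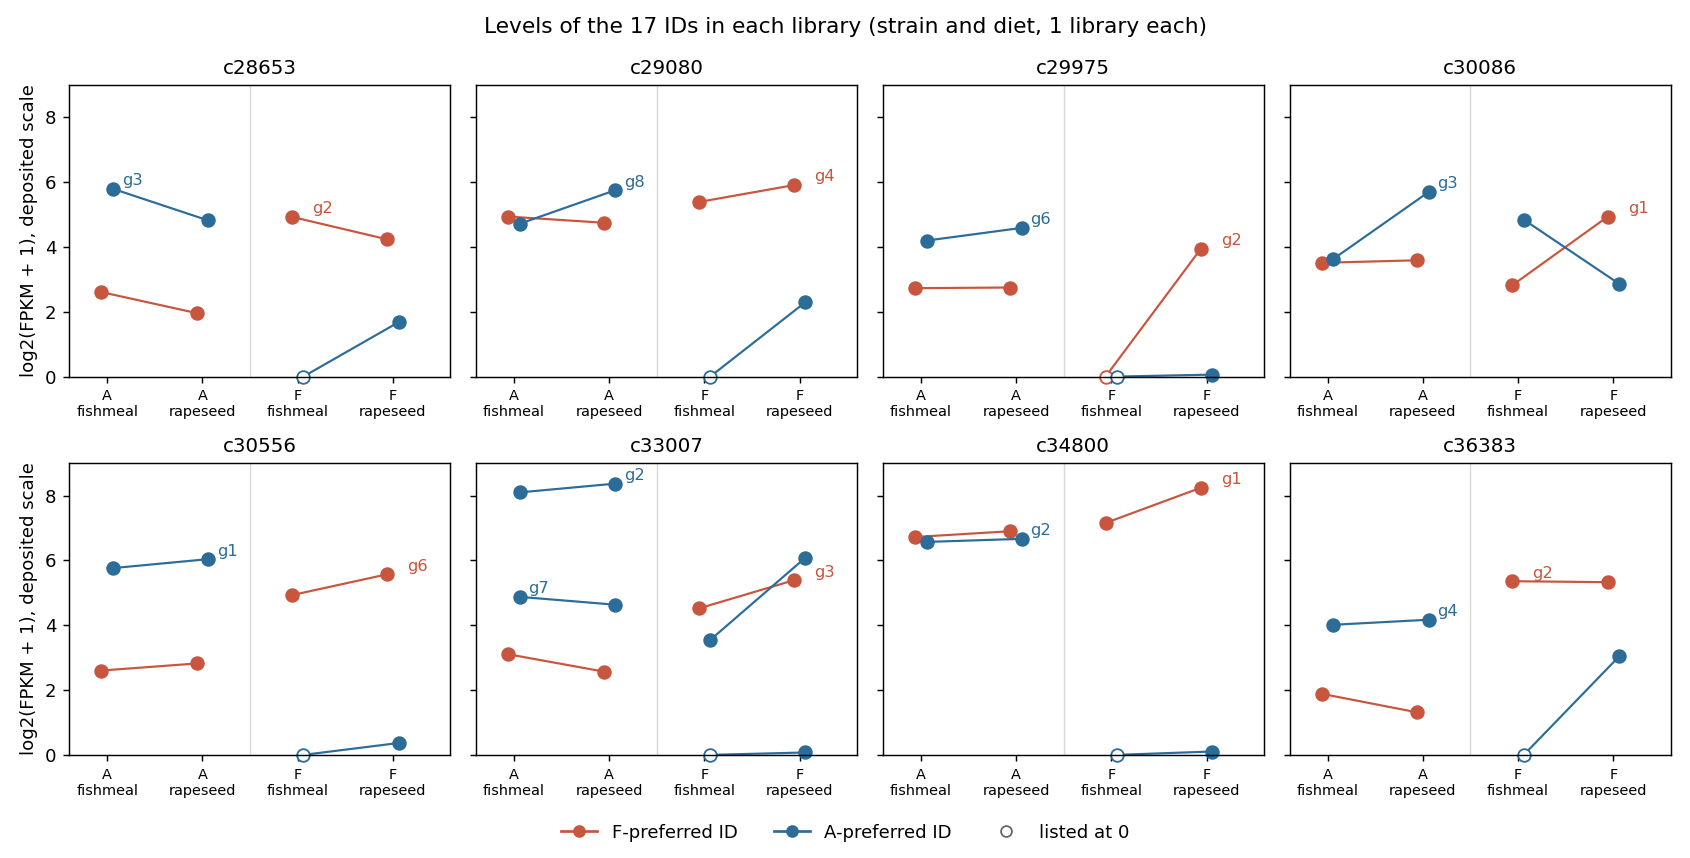
Level of each member as log2(FPKM + 1) in the 4 libraries, 1 panel per component, with a line joining the 2 diets of a strain and open circles for values listed at 0. F-preferred IDs (red) stand above A-preferred IDs (blue) in the F strain on rapeseed in every panel but that of c33007, where c33007_g2 stands at 67.0 FPKM and c33007_g3 at 40.9.

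The members with the highest summed level on rapeseed were the pair of c34800, one of which was close to 0 in the F strain. Its A-preferred ID c34800_g2 stood at 94.1 FPKM in the A strain on fishmeal and 101 on rapeseed, but was listed at 0 in the F strain on fishmeal and at 0.075 FPKM on rapeseed. Its F-preferred ID c34800_g1 stood at 105 and 119 FPKM in the A strain on fishmeal and rapeseed and at 142 and 302 FPKM in the F strain. The A strain thus held both IDs at about equal levels on both diets, while the F strain held c34800_g1 with next to none of c34800_g2. The log2 folds on rapeseed were 1.34 for c34800_g1 and -6.56 for c34800_g2. The sum over all 3 IDs of the component was 222 FPKM in the A strain and 302 in the F strain on rapeseed, a log2 difference of 0.44. On fishmeal it was 202 and 142 FPKM, a log2 difference of -0.51.

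In c30556 each strain had a high ID that was low or near 0 in the other. The A-preferred ID c30556_g1 stood at 53.3 and 64.8 FPKM in the A strain on fishmeal and rapeseed, and at a listed 0 and 0.289 FPKM in the F strain. The F-preferred ID c30556_g6 stood at 5.07 and 6.07 FPKM in the A strain and at 29.5 and 46.6 FPKM in the F strain. Both IDs kept to their strain on both diets, with log2 folds of 2.75 and -5.67 on rapeseed and 2.33 and -5.76 on fishmeal. A further ID, c30556_g3, was listed at 0 in both A strain libraries, which kept it out of the rule, and in the F strain its level was 33.6 FPKM on fishmeal and 163 on rapeseed. In contrast, c30556_g5 of the same component stood between 13.4 and 15.9 FPKM in all 4 libraries. With c30556_g3 included, the component sum was higher in the F strain on rapeseed, 268 against 123 FPKM, and 84.3 against 100 FPKM on fishmeal.

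The component c33007 was the one with 3 members, and the one whose sum was lowest in the F strain relative to the A strain. Its A-preferred ID c33007_g2 stood at 273 and 330 FPKM in the A strain on fishmeal and rapeseed and at 10.7 and 67.0 FPKM in the F strain. The other A-preferred ID, c33007_g7, stood at 28.4 and 23.8 FPKM in the A strain and at a listed 0 and 0.053 FPKM in the F strain. Against these, the F-preferred ID c33007_g3 stood at 7.60 and 4.95 FPKM in the A strain and at 21.9 and 40.9 FPKM in the F strain. Further IDs of the A strain were not members because the F strain listed them at 0 on rapeseed, and it did so on fishmeal too. On rapeseed c33007_g1 stood at 481 FPKM in the A strain, c33007_g9 at 103 and c33007_g5 at 31.0. The component sum was therefore 995 FPKM in the A strain and 112 in the F strain on rapeseed, 8.88 times lower in the F strain, and the higher level of c33007_g3 offset little of it.

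In c29975 the opposite IDs were minor parts of a component that was level between the strains on rapeseed. The A-preferred ID c29975_g6 stood at 17.3 and 23.1 FPKM in the A strain on fishmeal and rapeseed and at a listed 0 and 0.043 FPKM in the F strain. The ID c29975_g5, under the level filter, had the same form, with 9.38 and 12.7 FPKM in the A strain and a listed 0 and 0.053 FPKM in the F strain. The F-preferred ID c29975_g2 stood at 5.63 and 5.72 FPKM in the A strain, at a listed 0 in the F strain on fishmeal and at 14.4 FPKM on rapeseed. The main ID of the component, c29975_g4, stood at 78.9 and 63.7 FPKM in the A strain and at 76.6 and 81.2 FPKM in the F strain. The members made up 26.3% of the component sum in the A strain on rapeseed and 13.4% in the F strain, and the sums there were 110 and 107 FPKM. On fishmeal the sums were 126 FPKM in the A strain and 85.4 in the F strain, a log2 difference of -0.55.

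In c28653, c29080 and c36383 the A-preferred ID was present in the F strain on rapeseed at a lower level. In c28653 the A-preferred ID c28653_g3 stood at 54.5 and 27.2 FPKM in the A strain on fishmeal and rapeseed and at a listed 0 and 2.20 FPKM in the F strain. Its F-preferred partner c28653_g2 stood at 5.09 and 2.89 FPKM in the A strain and at 29.4 and 17.8 FPKM in the F strain, so in both strains both IDs were at lower levels on rapeseed, apart from the listed 0. The component also held c28653_g6, at 67.1 and 53.7 FPKM in the A strain and listed at 0 in the F strain on both diets, and its sum was 3.12 times lower in the F strain on rapeseed.

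In c29080 the A-preferred ID c29080_g8 stood at 25.3 and 52.7 FPKM in the A strain on fishmeal and rapeseed and at a listed 0 and 3.91 FPKM in the F strain. The F-preferred ID c29080_g4 stood at 29.7 and 25.9 FPKM in the A strain and at 40.8 and 59.1 FPKM in the F strain. It was the F-preferred member nearest the limit, with log2 folds of 1.16 on rapeseed and 0.45 on fishmeal. The component also held c29080_g7, at 18.8 and 33.1 FPKM in the A strain on fishmeal and rapeseed and at 15.1 FPKM and a listed 0 in the F strain. The component sums differed by less than 2-fold between the strains on both diets, at 112 and 75.4 FPKM on rapeseed and 83.1 and 56.0 FPKM on fishmeal.

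The widest F-preferred difference was in c36383. Its ID c36383_g2 stood at 2.69 and 1.48 FPKM in the A strain on fishmeal and rapeseed and at 40.04 and 39.2 FPKM in the F strain. That is 14.9 times higher in the F strain on fishmeal and 26.4 times on rapeseed, with levels in the F strain that differed little between the diets. The 40.04 FPKM comes from the shallow library, and how far low depth set it was not tested. The A-preferred ID c36383_g4 stood at 15.2 and 17.02 FPKM in the A strain and at a listed 0 and 7.21 FPKM in the F strain. Its rapeseed difference was 2.36-fold, the smallest of the A-preferred IDs, and with the library factors divided out its log2 fold was -0.83. The component sum was 33.3 FPKM in the A strain and 69.1 in the F strain on rapeseed.

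The component c30086 differed from the others in that its A-preferred ID was higher in the F strain on fishmeal. The A-preferred ID c30086_g3 had 11.4 FPKM on fishmeal against 50.8 on rapeseed in the A strain, and 27.7 FPKM on fishmeal against 6.28 on rapeseed in the F strain. The F-preferred ID c30086_g1 stood at 10.4 and 11.03 FPKM in the A strain on fishmeal and rapeseed and at 6.06 and 29.6 FPKM in the F strain. On fishmeal the log2 fold was 1.21 for c30086_g3, the reverse of that on rapeseed, and -0.69 for c30086_g1, under 2-fold and -0.26 with the library factors divided out. The remaining ID, c30086_g2, was likewise higher on rapeseed in the A strain, at 36.9 against 3.35 FPKM, and was listed at 0 in the F strain on both diets. This was the one component of the 8 in which every member was above 0 in all 4 libraries. Its F strain fishmeal values, 27.7 and 6.06 FPKM, come from the shallow library, and how far low depth set them was not tested.

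The rule did not use the fishmeal libraries, which give the strain difference in other samples, although the set was proposed with earlier results of all 4 libraries known. Of the 17 members, 12 were at least 2-fold apart on fishmeal in the direction seen on rapeseed, 2 at least 2-fold apart in the other direction, and 3 less than 2-fold apart. For the A-preferred IDs 8 of 9 were at least 2-fold lower in the F strain on fishmeal. Over all 6511 IDs that passed the filter the share was 25.8%, and over the 459 other A-preferred IDs it was 67.1%. The remaining member, c30086_g3, was at least 2-fold higher, as were 4.14% of the other A-preferred IDs. In the shallow F strain fishmeal library 7 of the 9 A-preferred members (77.8%) had a listed 0, as did 29.0% of the other A-preferred IDs and 6.58% of the IDs within 2-fold on rapeseed. Of the 8 that were lower, the exception above 0 was c33007_g2, at 10.7 against 273 FPKM. How far low depth set the 7 zeros was not tested.

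Of the 8 F-preferred IDs, 4 were at least 2-fold higher in the F strain on fishmeal, where the share was 6.99% over all IDs that passed the filter and 46.3% over the 350 other F-preferred IDs. The number at least 2-fold lower was 1, against 15.1% of the 350. The members' share of 50% is therefore near that of F-preferred IDs in general. The 4 were c36383_g2, c30556_g6, c28653_g2 and c33007_g3, with log2 folds of 3.48, 2.33, 2.32 and 1.41, and they were also those with the largest folds on rapeseed. Their F strain fishmeal values, 21.9 to 40.04 FPKM, come from the shallow library, and how far low depth set them was not tested. The IDs c29080_g4 and c34800_g1 were higher by less than 2-fold (0.45 and 0.43), c30086_g1 stood at -0.69 and c29975_g2 was listed at 0.

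Both sides were at least 2-fold apart on fishmeal, in the rapeseed direction, in 4 of the 8 components: c28653, c30556, c33007 and c36383. Taken 1 side at a time, so were 67.1% of the other A-preferred IDs and 46.3% of the other F-preferred IDs. Pairs of such other IDs were not counted, so the 4 of 8 is not read as particular to the members. With members above 0 in the F strain fishmeal library alone, 1 of the 4 components is left, c33007. There, 5 of 9 members were at least 2-fold apart in the rapeseed direction. Applied to the fishmeal libraries by itself, the rule gave 32 of 679 components (4.71%), which include 2 of the 8 (c30556 and c33007). These are 25% of the 8 and 6.25% of the 32. That rule also asks for values above 0 in the F strain fishmeal library, which 8 of the 17 members lack. Among these is c30556_g1, so the member pair of c30556 could not qualify on fishmeal. There c30556 entered through c30556_g6 and c30556_g8, and the latter is not a member. The ID c30556_g8 stood at 19.8 FPKM in the A strain and 6.03 in the F strain on fishmeal. On rapeseed it was the higher one in the F strain, at 36.9 against 21.0 FPKM. In c33007 the members c33007_g2 and c33007_g3 met the rule on both diets.

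**Figure D2:**
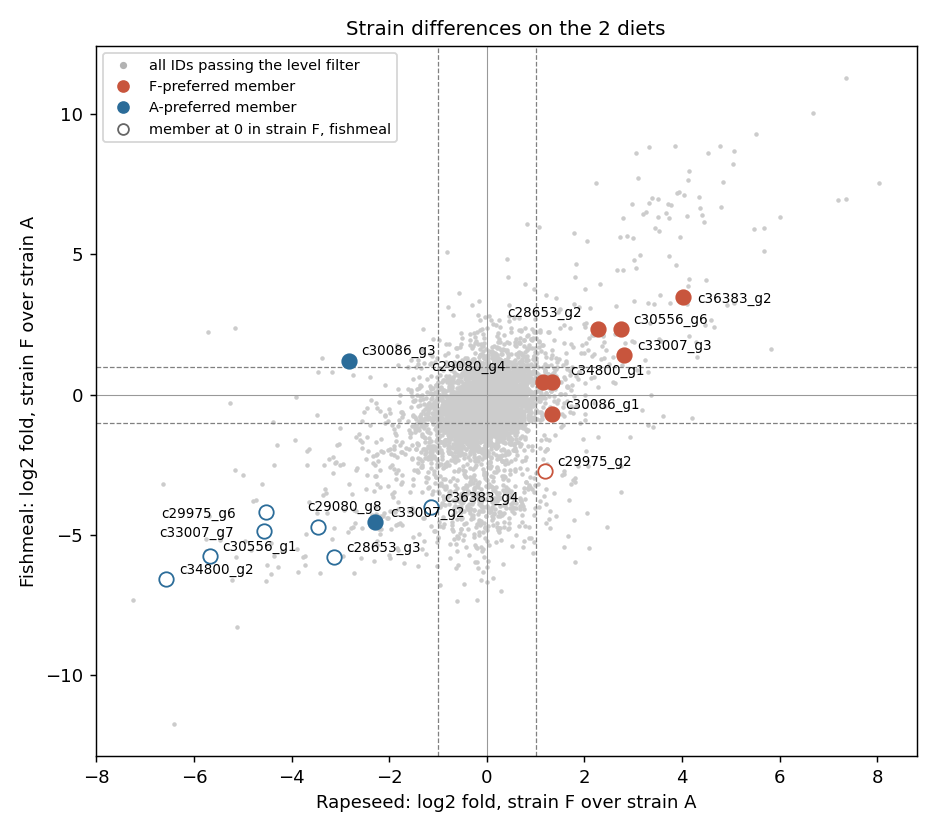
Log2 fold of the F strain over the A strain on rapeseed (horizontal) against that on fishmeal (vertical) for the 6511 IDs that passed the level filter (grey) and the 17 members (coloured, open where the F strain on fishmeal is listed at 0), with dashed lines at 2-fold. The members were chosen by the horizontal values. On the vertical axis 8 of 9 A-preferred IDs lie below the lower line and 4 of 8 F-preferred IDs lie above the upper line. The A-preferred c30086_g3 (upper left) and the F-preferred c29975_g2 (lower right, open) lie in opposite corners.

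Summed over all its IDs, a component could still differ between the strains. Taking the members alone, 6 of 8 component sums were within 2-fold between the strains on rapeseed, and c33007 (log2 difference -1.72) and c36383 (1.28) were beyond it. The rule asks for IDs on both sides in these same libraries, so nothing is read from that count. Taking all IDs of the components, 3 of 8 sums were within 2-fold on rapeseed (c29080, c29975 and c34800), 2 were higher in the F strain by 2-fold or more (c30556 and c36383) and 3 lower by as much (c28653, c30086 and c33007). Among the 767 components with 2 or more IDs past the filter, such sums were higher in the F strain by 2-fold or more in 4.56% and lower in 6.65%. All these sums come from the libraries that chose the members. The difference between members and all IDs came from 33 IDs that were not members, of which 7 stood at 10 FPKM or more in the A strain and at a listed 0 in the F strain on rapeseed and 1, c30556_g3, the reverse. On fishmeal, 6 of 8 sums over all IDs were within 2-fold and 2 were at least 2-fold lower in the F strain, c28653 at 29.4 against 134 FPKM and c33007 at 32.6 against 918 FPKM. Among the 767 components 20.7% were that much lower and 4.17% higher on fishmeal. Of the 50 IDs in the 8 components, 34 were listed at 0 in the F strain fishmeal library, against 14 in the F strain on rapeseed, 9 in the A strain on rapeseed and 5 in the A strain on fishmeal. Of all 56011 IDs, 36996 were listed at 0 in the F strain fishmeal library, a share near that of the 34 of 50. The numbers in the other libraries, in the same order, were 8172, 11105 and 8810.

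**Figure D3:**
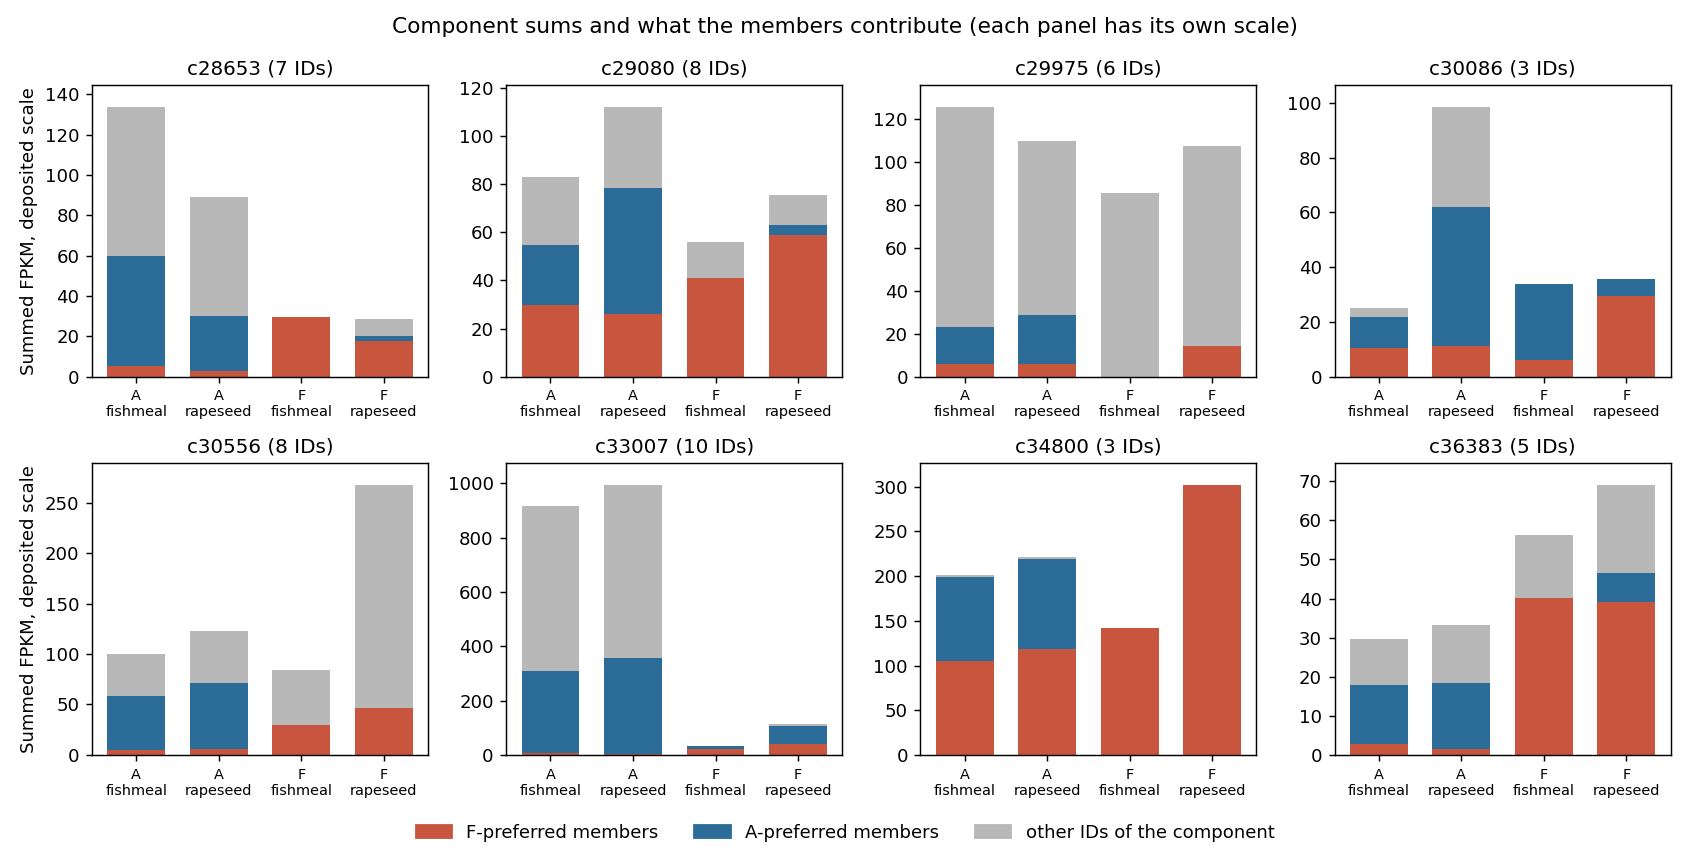
Summed FPKM of all IDs of each component in the 4 libraries, split into F-preferred members (red), A-preferred members (blue) and the other IDs (grey); each panel has its own vertical scale from 0. The red part is larger than the blue in the F strain on rapeseed in every panel but c33007, and the total of c33007 is 995 FPKM in the A strain and 112 in the F strain on rapeseed.

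The share of the F-preferred side in the members' summed level gives the balance of each pair free of the library factor. On rapeseed this share had a median over the 8 components of 13.7% in the A strain (1.38 to 54.1%) and 91.4% in the F strain (37.9 to 100%), a difference that the rule fixes. In the F strain on rapeseed it was over 80% in 7 of 8 components. On fishmeal it was 19.8% in the A strain (2.46 to 54.0%). In the F strain on fishmeal the share could be formed in 7 components, since both members of c29975 were listed at 0 there. It was higher than in the A strain in 6 of the 7 and 100% in 5, where the A-preferred ID was listed at 0. In c33007 it was 67.3% in the F strain against 2.46% in the A strain. In c30086 the order was reversed, at 18.0% in the F strain and 47.8% in the A strain.

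**Figure D4:**
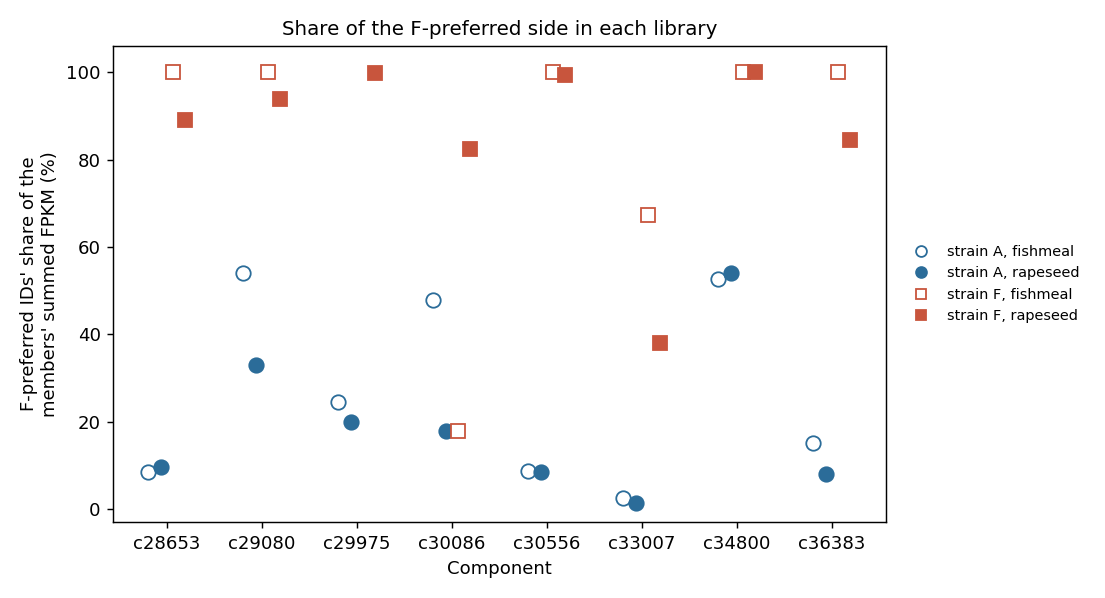
Share of the F-preferred IDs in the members' summed FPKM, in percent, for each component and library (circles the A strain, squares the F strain, open fishmeal, filled rapeseed). The F strain lies above the A strain on rapeseed in all 8 components and on fishmeal in 6 of the 7 with a value, c30086 being the exception at 18.0% against 47.8%.

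In the A strain the members differed by diet about as often as all IDs that passed the filter. Their shares by side were under those of other IDs with a strain preference, but rest on 9 A-preferred and 8 F-preferred members. Of the 17, 15 were within 2-fold between the diets, 2 were higher on rapeseed by 2-fold or more (c30086_g3, log2 fold 2.07, and c29080_g8, 1.03, which is 0.61 with the library factors divided out) and 0 were lower by that much. The ID c28653_g3 was just short of it, with a log2 fold of -0.98, and stood at -1.39 with the factors divided out. The members' shares of 11.8% higher and 0% lower are near those over all IDs that passed the filter, 8.48% and 2.17%. Of the other A-preferred IDs 36.2% were higher and 1.31% lower, against 22.2% and 0% of the A-preferred members. Of the other F-preferred IDs 16.3% were higher and 14.3% lower, against 0% and 0% of the F-preferred members. The median log2 fold of rapeseed over fishmeal was 0.10 for the members and 0.11 for all those IDs. In no component of the A strain did one member stand 2-fold higher and another 2-fold lower by diet. The 2 components with opposite diet folds of the named pair in the A strain, c29080 and c36383, had a smaller side of 0.19 and 0.16. Component sums in the A strain were within 2-fold between the diets in 7 of 8, and c30086 was higher on rapeseed, at 98.7 against 25.1 FPKM. The rapeseed library of the A strain also served to choose the members, so these counts are a description.

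In the F strain, 7 members were higher on rapeseed by 2-fold or more and 1, c30086_g3, lower by as much, where 26.8% and 3.69% of all IDs that passed the filter were. Of the A-preferred members 44.4% were higher, near the 41.6% of other A-preferred IDs. Of the F-preferred members 37.5% were higher, near the 33.7% of other F-preferred IDs. The median log2 fold of rapeseed over fishmeal was 0.64 for the members and 0.53 for all IDs that passed the filter. Of the 7 members that were higher, 4 were listed at 0 on fishmeal. Among the 9 members above 0 in that library, 3 were higher: c33007_g2 with a log2 fold of 2.54, c30086_g1 with 2.11 and c34800_g1 with 1.09 (0.49 with the library factors divided out). The pair of c30086 differed by diet in opposite directions in the F strain, while its sum was 33.7 FPKM on fishmeal and 35.8 on rapeseed. It was the 1 component of the 8 with members at least 2-fold apart in both directions by diet on the deposited scale. With the library factors divided out c28653 was another in the F strain, with log2 folds of -1.28 for c28653_g2 and 1.61 for c28653_g3, the latter from a listed 0. The rule applied to the diet pair of the F strain gave 25 of 726 components (3.44%), of which c30086 was the 1 shared with the 8. By 2-fold or more, component sums in the F strain were higher on rapeseed in 3 of 8, c30556, c33007 and c34800, and within 2-fold in the other 5. The sum of c34800 in the F strain was almost all c34800_g1, which was within 2-fold with the library factors divided out. Sums by diet were not counted over other components in either strain, so these counts have no background.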

How the data were processed

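Per the labels' protocols, RNA of flash-frozen liver was extracted with Trizol and sequenced from Illumina libraries. The submitters' processing notes name RSEM 1.2.17 and Bowtie 1.0.1 but not what each did; the reference for alignment was not given in the sources used. The authors deposited 1 table per library, whose unit was read from the values as FPKM times 1 factor per library: 100% of distinct values under 3 lay within 0.0006 of a multiple of a fixed step. The factors were 0.993, 1.34, 0.705 and 1.07 (in order, the A strain on fishmeal and on rapeseed, then the F strain). Read depth is not given, and relative depth was estimated from low values after division by the factors. Values were used as deposited with a pseudocount of 1. The code of the rule and of the factor estimate was run on simulated data. The planted pairs lay past the limits by design and no shallow library was simulated, so this checks the code alone. With 1 library per group, counts of IDs past 2-fold are given beside the same count over all IDs that passed the filter. An additive model across the 4 libraries was not used.

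The members and lists were chosen with earlier results of these data known. The naming rule picked c33007 and c30556 for the largest smaller fold, c34800 and c33007 for level and number of members, c34800 for sums (the one with IDs of mean 50 or more on both sides), c30086 for a reversal on fishmeal, and c29080, c36383 and c30086 for opposite diet folds. The part on a repeat on fishmeal asked for every member above 0 in all 4 libraries, which left c30086, and c30086 did not repeat. The other members, and IDs that are not members, were named after their values were seen. Alternatives were a pseudocount of 0.1, a mean of 30 or more, no filter on level, the factors divided out and a 3-fold limit, with members chosen again. Python 3.11.15, numpy 2.4.6, pandas 2.3.3 and matplotlib 3.10.9 were used.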

Additional observations from a re-analysis of the deposited data

Results flagged for a closer look

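In c29975_g2 and c30086_g3 an effect of at least 2-fold had the opposite sign on the other diet or in the other strain. Each value is 1 library, and the differences were not tested. For c29975_g2 the log2 fold of the F strain over the A strain was 1.19 on rapeseed and -2.73 on fishmeal, a difference of 3.92, and it was listed at 0 in the F strain fishmeal library, so the second value depends on the pseudocount. For c30086_g3 the strain fold was -2.83 on rapeseed and 1.21 on fishmeal, a difference of -4.04. By the same 4 values its diet fold of rapeseed over fishmeal was -1.98 in the F strain and 2.07 in the A strain, a difference of -4.04. This ID was above 0 in all 4 libraries. Its 27.7 FPKM in the F strain on fishmeal comes from the shallow library, and how far low depth set it was not tested.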

How the results depend on the processing

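The number of components depended mainly on the level filter. With a mean of 30 FPKM or more, 1 component (c34800) and 2 members were left, of which 1 was apart in the same direction on fishmeal, with 0 components repeated on both sides, 1 with sums within the fold limit in use on rapeseed, 1 on fishmeal, 1 with a higher F-preferred share in the F strain on fishmeal, 0 members apart by diet in the A strain, 1 in the F strain and 0 components with opposite diet effects. With no filter there were 82 components and 192 members, including all 17, and the same quantities were 112, 26, 59, 45, 43, 44, 109 and 17. With a 3-fold limit 3 components and 7 members were left, and the quantities, all counted at 3-fold, were 6, 2, 1, 1, 3, 0, 2 and 0. With the library factors divided out 5 components and 11 members were chosen, 10 of them among the 17. The components c28653, c29975 and c36383 were lost. Of these, c28653 and c29975 kept folds beyond 2-fold on both sides but fell short of the level filter on the rescaled values. On that scale 6 members were apart in the same direction on fishmeal and 2 components were repeated on both sides. By diet 1 member was apart in the A strain and 5 in the F strain. A pseudocount of 0.1 gave 9 components and 19 members, including all 17, and left every count within 1.5 times. The last alternatives were chosen after seeing the data. Allowing listed zeros on rapeseed gave 12 components and 34 members. Keeping members above 0 in the F strain fishmeal library left 5 apart in the same direction on fishmeal, 1 component repeated on both sides and 4 members apart by diet in the F strain.

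Among single members, 5 folds crossed the 2-fold limit with the factors divided out and 0 changed sign beyond it: c36383_g4 to -0.83 by strain on rapeseed, c28653_g3 to -1.39 and c29080_g8 to 0.61 by diet in the A strain, and c28653_g2 to -1.28 and c34800_g1 to 0.49 by diet in the F strain. A pseudocount of 0.1 moved 1 fold past the limit. That was c30556_g1 by diet in the F strain, from 0.37 to 1.96, with a listed 0 on fishmeal. No paired analysis was possible because each group holds 1 library, and no library could be left out within a group for the same reason.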

Other observations

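IDs that one strain lists at 0 on rapeseed fall outside the rule, and 4 more components had opposite preference when such IDs were allowed. They were named after their values were seen. In c26076 the strains had different IDs on both diets. The ID c26076_g1 stood at 0.139 and 0.374 FPKM in the A strain on fishmeal and rapeseed and at 212 and 361 FPKM in the F strain. The ID c26076_g3 was listed at 0 and stood at 0.067 FPKM in the A strain, against 121 and 156 FPKM in the F strain. In the other direction, c26076_g2 stood at 41.3 and 49.0 FPKM in the A strain and was listed at 0 in the F strain on both diets.

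In c31647, c31647_g1 stood at 457 and 494 FPKM in the A strain and at 98.5 and 97.2 FPKM in the F strain, while c31647_g2 was listed at 0 in both A strain libraries and had 28.0 and 27.9 FPKM in the F strain. In c32516, c32516_g3 stood at 85.6 and 141 FPKM in the A strain and at 12.4 and 39.1 FPKM in the F strain, while c32516_g5 was listed at 0 in the A strain and stood at 7.14 and 22.5 FPKM in the F strain. In these 3 components each ID kept its direction on fishmeal.

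The fourth, c31265, did not keep one direction for all its IDs. Its ID c31265_g4 had 61.4 FPKM on fishmeal against 687 on rapeseed in the A strain, and 140 against 327 FPKM in the F strain, so the F strain was higher on fishmeal and lower on rapeseed. Its ID c31265_g3 had 0.913 and 82.5 FPKM in the A strain and a listed 0 and 19.5 FPKM in the F strain, and c31265_g2 was listed at 0 in both A strain libraries and had 19.9 and 73.6 FPKM in the F strain.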
